A study of Mus musculus with 4 samples.

Results

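The AP-1 transcription factor genes described here are Fos, Fosb, Fosl1, Fosl2, Jun, Junb, Jund and Atf3, and the question was where CTCF peaks lie in and around them in cultured mouse cortical neurons. The genes were chosen by name, as members of the family and not by a threshold on any value, and all 8 were found among the 21774 protein-coding genes that RefSeq places on the assembled chromosomes of GRCm38.p6. CTCF occupancy was profiled by chromatin immunoprecipitation followed by sequencing (ChIP-seq), in a series on the sites where the topoisomerase TOP2B acts in neurons. The cells were wild-type primary cortical neurons from Swiss-Webster mice at embryonic day 16, collected on day 13 of culture, with no treatment listed; the culture protocol mentions the topoisomerase poison etoposide, but no sample is labelled as having received it. There were 2 CTCF immunoprecipitations and 2 inputs, with about 15M cells per replicate, and no second genotype, time or condition. The deposited measurement was 1 joint list of 33820 peaks that passed an irreproducible discovery rate (IDR) of 0.05 between the replicates. A list of CTCF peaks holds no marker expression, so the labelled cell type could not be checked against it, and the depth of each library is unknown from it.

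AP-1 is a family of dimeric leucine zipper transcription factors. Fos proteins do not form stable dimers with themselves and bind DNA together with a Jun protein, whereas Jun proteins can also pair with one another. In neurons, Fos, Fosb and Junb are classic immediate early genes, transcribed within minutes of synaptic activity without new protein synthesis, through factors such as SRF and CREB bound at their promoters. CTCF, a DNA-binding protein with zinc fingers, anchors chromatin loops together with cohesin. Fos is known to be controlled by several activity-responsive enhancers on both sides of the gene; their positions were not compared with the peaks here.

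Each peak carries a −log10 p from each of 2 replicate columns and their sum, called the joint strength here. All are the authors' values, and they rank peaks within this list only. The list does not say which labelled replicate either column holds, and here they are simply named first and second column. A peak was placed by the summit of the joint peak. Gene positions are given on GRCm38.p6, the same assembly as mm10, and "lower" and "upper" ends refer to coordinates.

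RefSeq promoter entries existed for 7 of the 8 genes (all but Fosl1), and 4 of their listed start sites lay under a peak: those of Fos, Fosb, Fosl2 and Atf3. Across all 17492 genes with an entry, 24.2% had a start under a peak. The bases just upstream of these 4 starts are shown because the peaks over the starts reach into them. The peak spans the whole stretch at Fosb, Fosl2 and Atf3, but at Fos only its part from position 85473756 to the start. Each is given 5′ to 3′ along the gene, from RefSeq on GRCm38.p6, and capitals mark a match on either strand to one of the motifs described in the next paragraph. The Fos stretch is chr12:85473640-85473889 on the plus strand. The Fosb stretch is chr7:19310119-19310295 on the minus strand, without the 73 bases between the listed start and the upper gene bound. The Fosl2 stretch is chr5:32136222-32136471 on the plus strand, and the Atf3 stretch is chr1:191183334-191183583 on the minus strand.
Fos: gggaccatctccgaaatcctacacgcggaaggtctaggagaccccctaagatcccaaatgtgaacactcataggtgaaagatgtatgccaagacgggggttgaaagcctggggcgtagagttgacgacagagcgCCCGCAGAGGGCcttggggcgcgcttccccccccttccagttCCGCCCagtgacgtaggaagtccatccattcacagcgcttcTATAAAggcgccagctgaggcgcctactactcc
Fosb: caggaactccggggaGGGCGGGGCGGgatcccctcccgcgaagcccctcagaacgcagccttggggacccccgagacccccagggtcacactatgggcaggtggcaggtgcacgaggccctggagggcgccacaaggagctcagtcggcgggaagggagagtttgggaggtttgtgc
Fosl2: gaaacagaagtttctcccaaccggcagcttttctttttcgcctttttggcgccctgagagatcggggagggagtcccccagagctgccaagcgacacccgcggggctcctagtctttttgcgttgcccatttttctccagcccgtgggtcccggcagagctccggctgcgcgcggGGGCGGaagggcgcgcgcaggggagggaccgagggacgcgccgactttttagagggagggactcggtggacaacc
Atf3: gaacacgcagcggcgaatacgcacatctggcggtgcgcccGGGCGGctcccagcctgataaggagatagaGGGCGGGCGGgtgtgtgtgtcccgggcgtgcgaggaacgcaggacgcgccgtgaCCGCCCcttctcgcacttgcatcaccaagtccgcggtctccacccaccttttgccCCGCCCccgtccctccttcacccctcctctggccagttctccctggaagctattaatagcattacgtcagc

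Motifs were searched on both strands of the promoter windows, which run from 250 bases before to 50 after each listed start. The core of the CTCF motif, written CCNNNAGNNGGC, was found at Fos alone among the 7 genes, as CCCGCAGAGGGC from position −116 to −105 counted from the start. This match was 293 bp from the summit of the overlapping peak in the first column and 273 bp from that in the second. The same core occurred in 9.88% of all 21263 promoter windows, in 18.9% of those overlapping a peak by any base and in 6.77% of the rest. Of all windows, 25.5% overlapped a peak in this way, among them that of Jun, whose start lay under none. A stricter core, CCANNAGNNGGC, occurred in 2.34% of all windows and in none of the 7. The AP-1 site TGACTCA (4.66% of windows), the cyclic AMP response element TGACGTCA (2.23%) and the CArG box bound by SRF (1.52%) had no exact match in these 7 windows. Variants of these sites, and bases outside the windows, were not searched. The TATA box letters TATAAA stood at −33 to −28 in Fos and began at the listed start in Junb, against 12.6% of all windows. The GC box GGGCGG was found at Fos, Fosb, Fosl2, Jun and Atf3, 5 of 7, against 46.2%; Atf3 held 5 copies and Fosb 3, some of them overlapping. GC content ran from 58.7% to 68.3% in 6 of the 7 windows and was 46.7% in Jund, beside a median of 56.3% over all windows. A match is a run of letters and was not tested for binding.

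All 8 AP-1 genes had a CTCF summit inside or within 5 kb, and 6 had one within 1 kb of an end. The 6 were Fos, Fosb, Fosl1, Junb, Jund and Atf3, against 29.2% of all protein-coding genes. All 8 are under 30 kb long, and among protein-coding genes of that length the share was 25.2%. The nearest summit stood 1113 bp from an end of Jun and 1358 bp from Fosl2, just outside the window. A summit within 5 kb of an end was present for 8 of 8, against 51.3% of all genes. A summit lay inside 6 of 8 (all but Junb and Jund), against 44.6%. Counting any base of a peak, all 8 had one within 1 kb of an end, against 36.1%. The median distance from the nearer end to a summit was 582.5 bp over the 8 genes and 4587.5 bp over all protein-coding genes. Of all genes, 33.1% had a summit as near to an end as that of Fosl2, the farthest of the 8. Counting starts alone, 3 of 7 had a summit within 1 kb, Fos, Fosb and Atf3, against 25.7%. Because the genes are few and were chosen with results of this list known, these counts are descriptions without a test.

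**Figure D1:**
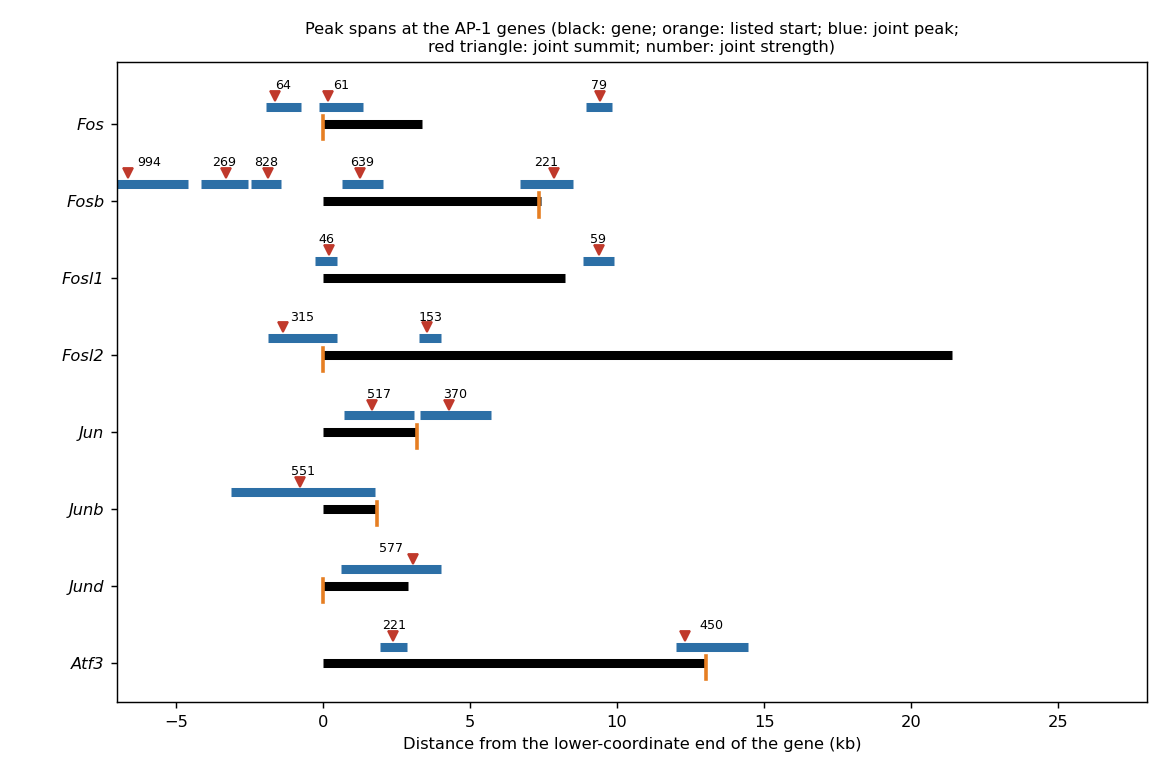
Peak spans at the 8 genes, with distance from the lower-coordinate end of each gene in kb on the horizontal axis and one gene per row. Black bars are gene bodies, orange ticks listed starts (none is listed for Fosl1), blue bars joint peaks, red triangles joint summits and numbers joint strengths; the peaks of Jun, Junb and Jund span most of the gene, and those of Fosl1 and Fosl2 a small part.

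In the Fos subfamily, Fos encodes the prototype partner of Jun and lies at chr12:85473890-85477274 on the plus strand (gene ID 14281). A peak of 1486 bp covered its start, with the summit 173 bp inside the gene and a joint strength of 61.1. The value was 32.7 in the first column and 28.4 in the second. A second peak, of 1180 bp, had its summit 1627 bp upstream of the start and a joint strength of 64.2, from 28.3 and 35.9. By joint strength both were weak for this list: 15.5% and 17.2% of all peaks were weaker, and the list median was 165.5. The columns differed in this. In the first column 52.4% and 46.6% of peaks ranked lower, and in the second only 7.21% and 12.3%. Replicate summits of both peaks agreed to within 20 bp. The peak over the start covered 39.9% of the gene, and the upstream peak none of it.

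Fosb, whose short splice form ΔFosB is known to build up in neurons under repeated stimulation, lies at chr7:19302696-19310118 on the minus strand (gene ID 14282). It had the strongest peaks of the Fos subfamily near the gene. The peak over its listed start had a summit 520 bp upstream of the start and 447 bp beyond the upper bound, with a joint strength of 220.8, from 103.5 in the first column and 117.3 in the second. A peak inside, 1265 bp from the lower end, reached 638.7, from 372.9 and 265.8. Downstream of the gene, a peak 1852 bp beyond the lower end reached 827.9, the highest near any of the 8 genes, from 150.3 and 677.6. The next, at 3308 bp, had 268.8, from 24.7 and 244.1. The downstream pair was thus far higher in the second column, while the inside peak was higher in the first.

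Fosl1 and Fosl2 encode the Fra proteins, Fos relatives that lack the transactivation domain of Fos. Fosl1 lies at chr19:5447698-5455938 (gene ID 14283), and its lower end had the weakest peak near any of the 8 genes. The summit stood 212 bp inside the lower end, with a joint strength of 46.1, from 25.4 in the first column and 20.8 in the second. A peak 1139 bp beyond the upper end had 58.5, from 32.8 and 25.7. That summit lay inside the overlapping gene Ccdc85b and 486 bp from its end, so the peak stood at an end of Ccdc85b rather than of Fosl1. Of all peaks, 6.88% and 14.1% were weaker by joint strength. In the first column 42.1% and 52.4% ranked lower, and in the second 2.29% and 5.60%.

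Fosl2 lies at chr5:32136472-32157840 on the plus strand (gene ID 14284) and at 21369 bp is the longest of the 8. Its start lay under a peak of 2346 bp whose summit was 1358 bp upstream, with a joint strength of 315.0, from 178.2 in the first column and 136.8 in the second. A narrow peak of 776 bp stood 3553 bp inside, with 153.0, from 19.7 and 133.3. The start peak was higher in the first column and the inside peak in the second. Of all peaks, 75.3% were weaker than the start peak and 47.1% weaker than the inside peak.

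Among the Jun genes, peaks covered most of the gene. Their widths, from 2379 to 4897 bp, were not particular to these genes. The start peaks of Atf3 and Fosl2 had 2454 and 2346 bp. These genes are short, from 1840 bp (Junb) to 3187 bp (Jun). Over all protein-coding genes, of any length, the median share covered was 0.274%. The share for genes as short as these was not computed. Jun, the founding member and a substrate of the JNK kinases, lies at chr4:95049036-95052222 on the minus strand (gene ID 16476). A peak of 2379 bp inside it covered 74.6% of the gene, with a joint strength of 517.5, from 275.4 in the first column and 242.0 in the second. The summit was 1518 bp downstream of the start. A second peak, of 2403 bp, lay upstream of the start, with 370.2, from 85.1 and 285.0. Its joint summit was 1113 bp upstream of the start, but the first column's own summit was 695 bp and the second's 1138 bp away. The start of Jun therefore lay in the short gap between both peaks, 93 bp from the nearest peak base.

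Junb, an immediate early gene that can oppose Jun, lies at chr8:84976909-84978748 on the minus strand (gene ID 16477). A peak of 4897 bp, wider than 99.9% of the list, covered 96.5% of the gene and ended 65 bp short of its start. Its joint strength was 551.0, from 197.6 in the first column and 353.3 in the second. The joint summit fell 769 bp beyond the lower end, yet the 2 replicate summits lay 2328 and 2448 bp beyond it. Those were 230 and 350 bp from the end of the neighbouring gene Prdx2, which encodes a peroxiredoxin. By either replicate's own summit, Junb thus had no summit within 1 kb of an end.

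Jund, the Jun gene known for steady expression in many cell types, lies at chr8:70697739-70700616 on the plus strand (gene ID 16478). A peak of 3403 bp covered 78.4% of it but not the listed start, which was 623 bp away. The joint strength was 576.8, from 268.8 in the first column and 308.1 in the second. The joint summit stood 183 bp beyond the upper end, and the first column's summit 181 bp; the second column's was inside, 1159 bp from that end. The end of the next gene, Iqcn, is 704 bp away, so the same peak stood at ends of both genes.

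Atf3, a stress-induced member of the ATF/CREB proteins that pairs with Jun and is known to rise in injured neurons, lies at chr1:191170296-191183333 on the minus strand (gene ID 11910). Its start lay under a peak of 2454 bp with the summit 718 bp inside the gene. The joint strength was 450.4, from 273.2 in the first column and 177.2 in the second. A second peak, 2381 bp from the lower end, had 221.0, from 38.1 and 182.8. The start peak was the higher one in the first column, while both were nearly equal in the second.

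In order of the strongest peak inside or within 5 kb, the genes ran Fosb (827.9), Jund (576.8), Junb (551.0), Jun (517.5), Atf3 (450.4), Fosl2 (315.0), Fos (64.2) and Fosl1 (58.5). Fos and Fosl1 stood well below the other 6. Their highest values were 32.7 and 32.8 in the first column, where the list median was 30.9. In the second column they were 35.9 and 25.7, where the list median was 128.9. With 1 joint list, neighbours in this order cannot be separated by a spread over samples. The columns ordered several genes differently. By its highest value among these peaks, Fosb led in both, with 372.9 in the first column and 677.6 in the second. In the first column Jun (275.4), Atf3 (273.2), Jund (268.8) and Junb (197.6) followed. In the second the order was Junb (353.3), Jund (308.1), Jun (285.0) and Atf3 (182.8).

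Like peaks at other gene ends, those at and near the AP-1 genes differed from most of the list in how the replicate columns compared. The first column was the higher one in 7 of the 16 peaks inside or within 5 kb, and in 3 of the 6 at an end. Over the list this held for 9.26% of peaks, and for 28.9% of the 6096 peaks at ends of protein-coding genes. In the 74 other peaks within 100 kb it held for 8, or 10.8%. The median log2 ratio of the second to the first column was 0.19 in the 16 near peaks and 1.43 in the 74 others. It was 0.40 at all gene ends, 0.23 in the 4269 peaks within 1 kb of a listed start and 1.91 over the list. The median ratio of the near peaks was thus close to that of peaks at listed starts, and nearer to that of gene ends than to that of the list. These sets are unlike, because only 6 of the 16 near peaks lay within 1 kb of an end. For those 6 the median ratio was −0.01. The ratio for peaks inside or within 5 kb of all genes was not computed. Library depth is unknown, and its part in these column differences was not tested. The near peaks had a median joint strength of 291.9 and a median width of 1557.5 bp, against 165.5 and 1123 bp over the list. For peaks at ends of all protein-coding genes the medians were 160.7 and 1309 bp.

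**Figure D2:**
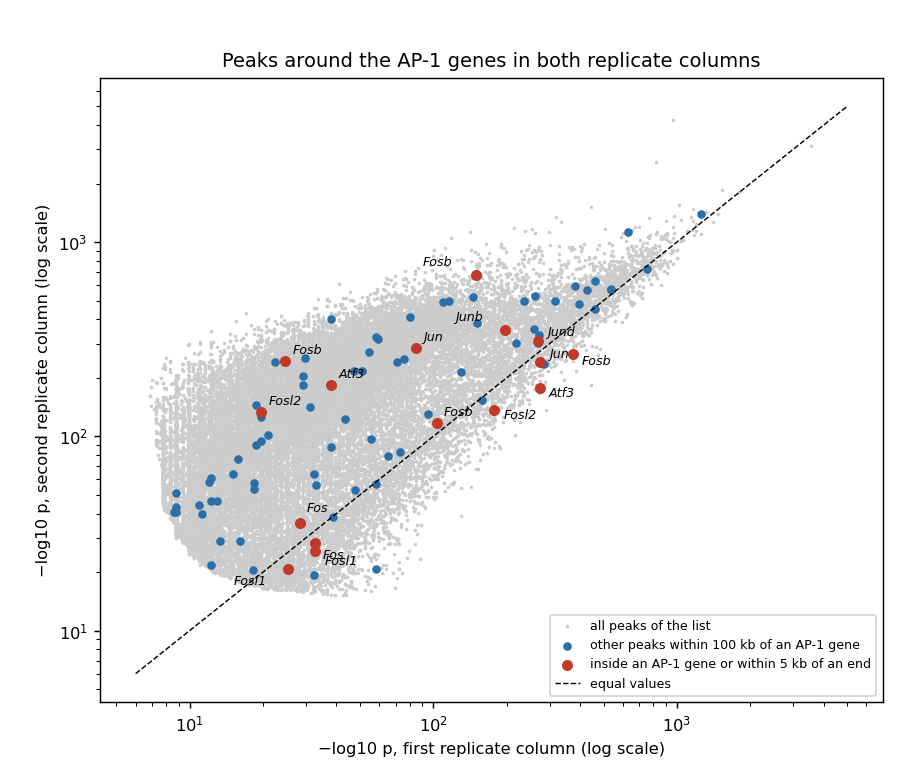
Values of the first (horizontal) and second (vertical) replicate column, each as −log10 p on a log axis. Grey points are all 33820 peaks, blue points the 74 other peaks within 100 kb of an AP-1 gene and red points the 16 peaks inside or within 5 kb; 7 red points and 8 blue points lie below the dashed line of equal values, where the first column is higher.

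Within 100 kb of the 8 genes there were 90 peaks, none shared between them. Fosb had 18, Junb 15, Fosl1 and Jund 13 each, Atf3 11, Fos 9, Fosl2 6 and Jun 5. The median was 12, against 6 over all protein-coding genes, whose quartiles were 3 and 9 and whose 90th percentile was 12. The AP-1 genes with many peaks also lay among many genes. Junb had 17 other protein-coding genes within 100 kb, Fosl1 16, Jund 13 and Fosb 12, whereas Atf3 had 3, Fosl2 2, and Fos and Jun 1 each. Over all genes the median number of peaks was 4 in the 11295 genes with 0 to 4 such neighbours, 7 with 5 to 9 and 10 with 10 or more. Each of the 8 AP-1 genes had more peaks than the median of its class, but the share of all genes that do so was not computed. Beside the median of 6 over all genes, Jun was lower and Fosl2 equal. Fosb (18), Junb (15), Fosl1 (13) and Jund (13) stood beside a median of 10, and Atf3 (11), Fos (9), Fosl2 (6) and Jun (5) beside a median of 4. The part of gene density in these counts was not tested.

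**Figure D3:**
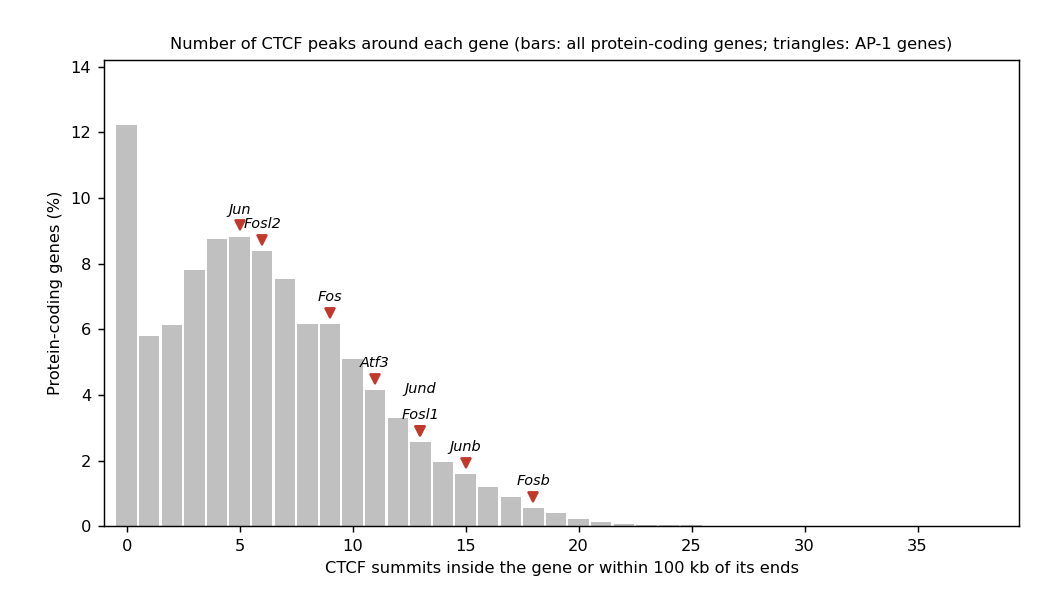
Number of CTCF summits inside each protein-coding gene or within 100 kb of its ends (horizontal) against the share of the 21774 protein-coding genes with that number (vertical, in percent). Red triangles mark the AP-1 genes, from Jun with 5 peaks to Fosb with 18; the median of all genes is 6.

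Peaks around Fos were spread on one side. Beyond its upper, downstream end, toward Jdp2 (which encodes a repressor that pairs with Jun), 6 summits lay in the gap of 121381 bp. They stood at 6020, 10671, 15055, 19619, 31160 and 62397 bp, with joint strengths of 78.7, 268.4, 233.1, 114.0, 163.0 and 49.6. The peak at 10671 bp was the strongest within 100 kb of Fos, with 50.8 in the first column and 217.6 in the second. All 6 were higher in the second column, like most of the list, where the first was higher in 9.26% of peaks. The peak 1627 bp upstream of Fos was also higher in the second column, and the peak at the Fos start in the first. Upstream, after the peak at 1627 bp, the next summit was 99474 bp away, at an end of the neighbour Tmed10, with 78.9. That peak had 58.1 in the first column and 20.8 in the second.

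Jun had the fewest peaks of the 8 genes within 100 kb, at 5. Its nearest summit below was 40718 bp away with a joint strength of 491.6, from 79.9 in the first column and 411.7 in the second. Above the gene, toward Fggy at 505257 bp, the peak 1113 bp from the start was the only one within 100 kb. The strongest peak within 100 kb was the one inside Jun. The lower neighbour, Mysm1, had a peak at its end with 89.2.

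Fosl2 likewise held its own strongest peak, the one at its start. No other summit lay within 100 kb below it, toward Babam2. Above it, toward Plb1, the nearest was 40116 bp away with 95.9, and the remaining 3 had 51.9, 50.9 and 69.9. All 4 upper peaks were below the list median.

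Fosb had the most peaks of the 8 genes within 100 kb, at 18. Its lower neighbour Rtn2 was 6531 bp away, and a peak at the Rtn2 end, 6639 bp below Fosb, had the highest joint strength within 100 kb, 993.7, from 428.3 in the first column and 565.4 in the second. The nearest summit farther above the start peak was 32714 bp from the gene, toward Ercc1, with 668.5. Of the 18 peaks, 15 exceeded the list median.

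At Fosl1, the nearest summit below was 19365 bp away with 91.9, between it and AI837181. Above, past Ccdc85b, a peak inside the neighbour Fibp at 8006 bp had 536.2. The strongest was 32096 bp away at an end of Mus81, with 1096, from 463.4 in the first column and 633.0 in the second. Only 4 of the 13 peaks exceeded the list median.

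The strongest peaks around Junb and Jund lay at or in other genes. At the Junb locus the highest was inside Klf1, 73696 bp below, with a joint strength of 1479, from 755.4 in the first column and 723.6 in the second. The nearest above was 11278 bp away, inside the neighbour Hook2, with 733.5. At the Jund locus a peak at an end of Gdf15, 67820 bp below, had 2651, from 1253 and 1398, and ranked 9th of the list. One inside Pik3r2, 68949 bp above, had 1761. The nearest below Jund, at an end of the neighbour Lsm4, was 24658 bp away with 879.8, and the nearest beyond its own peak was 17870 bp above, at ends of Iqcn and Gm3336, with 520.4. In both loci 10 peaks exceeded the list median, of 15 and 13.

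At the Atf3 locus the strongest peak was at an end of Batf3, another AP-1 family gene, 71852 bp below Atf3, with 604.7, from 270.5 in the first column and 334.2 in the second. The nearest summit below Atf3 was 17038 bp away with 264.3, beyond the neighbour Fam71a. The nearest above was 10950 bp away with 72.1, toward Nenf. Of the 11 peaks, 6 exceeded the list median.

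**Figure D4:**
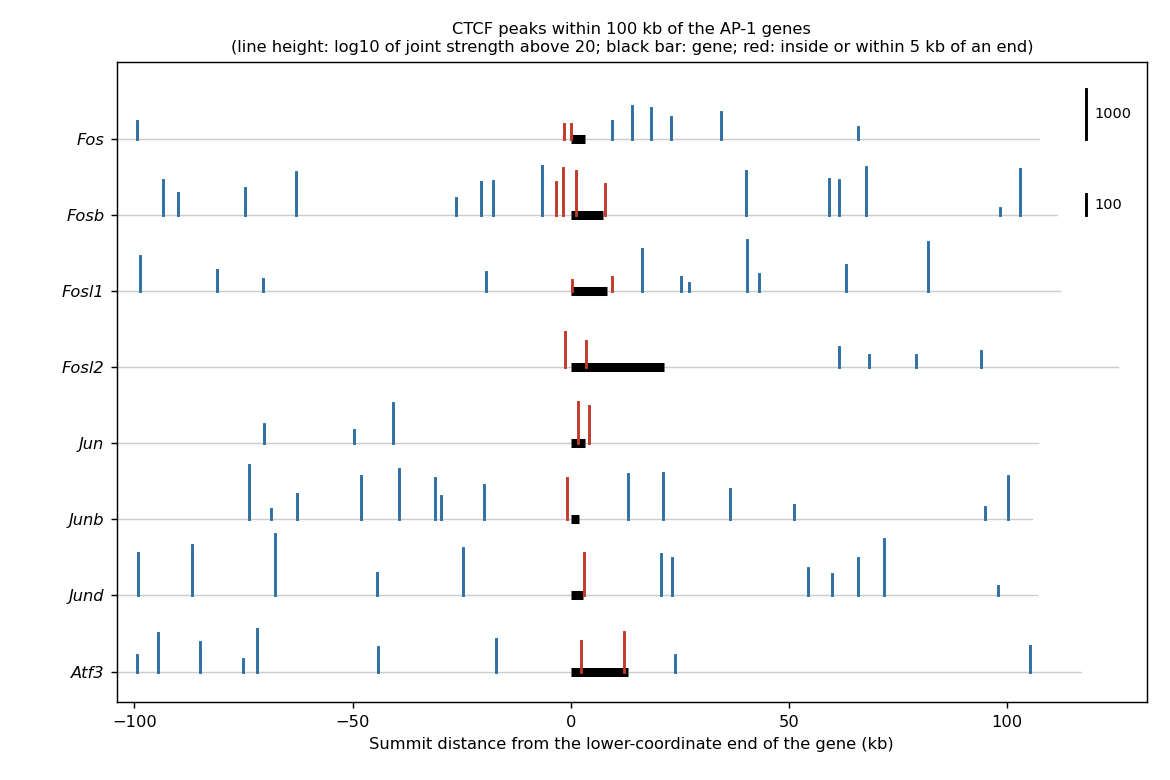
CTCF summits inside the 8 AP-1 genes and within 100 kb of their ends, with distance from the lower-coordinate end of each gene in kb on the horizontal axis. Line height is the log10 of joint strength above 20 (scale bars for 100 and 1000 at the right), black bars are genes, red lines are summits inside or within 5 kb of an end; Fosl2 has no other summit below it, and the summits of Fos lie mostly above it.

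Other genes of the AP-1 pathway were taken from 4 lists of known partners, inducers, upstream kinases and other immediate early genes. Over all protein-coding genes, 29.2% had a summit within 1 kb of an end and 51.3% within 5 kb. Of 13 AP-1 partners and relatives, 7 had a summit within 1 kb of an end and 10 within 5 kb. The strongest of these end peaks were at Mafa (joint strength 1114), Batf3 (604.7), Mafg (477.4), Atf7 (389.7) and Jdp2 (116.9). Of 14 factors that induce AP-1 genes, 6 had one within 1 kb and 11 within 5 kb, led by Crem (949.1), Creb1 (95.0), Atf1 (94.9), Ep300 (73.9) and Elk4 (47.7). Srf, whose protein binds the CArG box, had its nearest summit 2240 bp from an end. Of 13 upstream kinases, 9 had a summit within 1 kb and 9 within 5 kb. The strongest end peaks were at Mapk9 (975.9), which encodes a JNK, Mapk14 (911.8), which encodes a p38 kinase, Map2k1 (714.7), Map2k7 (407.4) and Mapk3 (405.2).

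Of 11 other immediate early genes, 3 had a summit within 1 kb of an end: Dusp1 (619.5), Nr4a3 (298.0) and Nr4a1 (50.8). A summit within 5 kb was present for 9 of the 11. These shares of 53.8%, 42.9%, 69.2% and 27.3% stand beside 6 of the 8 AP-1 genes and 29.2% for all protein-coding genes. The median number of peaks within 100 kb was 8, 7, 9 and 9 in the lists, 12 at the AP-1 genes and 6 over all genes. Differences between these small lists were not tested.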

How the data were processed

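The authors made 2 CTCF immunoprecipitations and 2 inputs from DNA fixed for 10 minutes in 1% formaldehyde and sheared to 200 to 500 bp, per the labels' protocols. The submitters' processing notes name FastQC, Trimmomatic, BWA, SAMtools and MACS2, with the builds mm10 and GRCm38.p6. For tool versions, the MACS2 threshold and the use of inputs, the setting is not given in the sources used here. Each row of the deposited list has 20 columns in the layout of the IDR program, so peaks appear called per replicate and joined. Its −log10 p values per replicate, their sum and the −log10 of the global IDR are the authors' and depend on depth. The joint value equalled the sum of the replicate columns in every row. The joint summit lay within 1 bp of the mean of the replicate summits in 85.1% of peaks.

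Genes came from a RefSeq table of GRCm38.p6 with bounds but no strand. Strand and listed start came from the RefSeq promoter table. Genes on scaffolds were left out. Distances run from the joint summit to the gene bounds. Placement was tested on simulated data and assigned 200 of 200 planted peaks correctly. Members and lists were chosen with earlier results of these data known, so no test was run. Named were all 8 members with each end peak, inside peak, nearest summit on either side and strongest peak within 100 kb, their nearest protein-coding neighbours, and from each list up to 5 genes with the strongest end peaks. Srf was named after its value was seen. Alternatives used other thresholds, windows and summits. Python 3.11.15, numpy 2.4.6, pandas 2.3.3 and matplotlib 3.10.9 were used.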

Additional observations from a re-analysis of the deposited data

How the results depend on the processing

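No paired analysis was possible because the result comes from no test and the list is joint. The 6 genes with a summit within 1 kb of an end became 3 when peaks had to exceed the second column's median (Atf3, Junb and Jund, against 13.1% of all genes) and 3 when starts alone were counted. The count was 4 above the median joint strength, against 14.9% of all genes. At an IDR of 0.01 it was 5, without Fosl1, against 23.3%. Placing peaks by a replicate's own summit, chosen after the data were seen, gave 6 genes for the first column, with Jun in place of Junb. It gave 4 for the second, without Junb and Jund. The shares of all genes were 28.8% and 28.7%. The 6 genes with a summit inside became 3 above the median joint strength, where the share of all genes was not computed. The 90 peaks within 100 kb became 51 above the median joint strength, 59 above the median of the first column, 51 above that of the second, 52 within 50 kb and 167 within 200 kb. The median distance to the nearest summit, 0 bp, became 476 bp above the median joint strength, 91.5 bp above the median of either column and 582.5 bp when measured to the nearer end. With the stricter CTCF core, matches at the 7 promoters went from 1 to 0. The count of 8 with a summit within 5 kb of an end stayed between 6 and 8 over its 7 alternatives. The shares of all genes at those alternatives were not computed. Depth per library is unknown, so how many weaker peaks were missed was not tested.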
